A study of Mus musculus with 2207 samples.

Results

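*Mbd5*, *Kmt2c*, *Smarcb1* and *Nr1i3* are the mouse counterparts of genes in which variants have been reported in people with a syndrome like EHMT1 deficiency (Kleefstra syndrome). They were chosen by symbol, and all 4 were found among the 52636 genes of each expression table. Their RNA was followed in 2207 nuclei of mouse frontal cortex, sequenced one nucleus at a time by RamDA-seq, a random-primed total RNA method that reads along the whole transcript. The nuclei carry a label of Neuron (1664 nuclei), Oligodendrocyte (397 nuclei) or Microglia (the remaining 6.62%) and fall into 6 pools, each made from 3 mice.

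The 96-well plates held wild type (Ehmt1+/+, WT) and Ehmt1delta/+ mice. The 384-well plates held 4 pools that all carry Ehmt1 iTg, an inducible *Ehmt1* transgene at the Rosa26 locus that makes FLAG-tagged GLP after Cre recombination. WT and Ehmt1delta/+ carried it without CamKII-CreER per the labels, although the study's figure legends list CamKII-CreER for them too. The pools called iTg (Ehmt1+/+) and Ehmt1delta/+; iTg carried CamKII-CreER, a tamoxifen-dependent Cre driven by a promoter of forebrain neurons. All mice were C57BL/6 in the labels (C57BL6/J in the study's methods) and 14 weeks old. Per the labels all had been given tamoxifen (2 doses of 100 mg/kg) when 3 weeks old, the controls included. The study's methods put 1 week between the doses, and its figure legend for the 96-well mice names no tamoxifen. The labels do not say which mouse a nucleus came from, and each pool therefore counts as 1 sample. P-values measure only the spread between these pools, which may be technical. Pools are named below by their labels.

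The 4 proteins do different things. *Mbd5* encodes a protein with a methyl-CpG-binding-like domain that associates with PR-DUB, the complex that removes ubiquitin from histone H2A. *Kmt2c* (MLL3) is a histone methyltransferase of COMPASS-type complexes that marks enhancers with monomethylated H3K4. *Smarcb1* is a core subunit of the BAF and PBAF complexes, which use ATP to move nucleosomes. *Nr1i3* encodes CAR, a nuclear receptor best known as a xenobiotic sensor of the liver that pairs with RXR. It is not itself a chromatin enzyme. *Ehmt1* encodes GLP, which together with G9a (*Ehmt2*) places mono- and dimethylation on H3K9, a mark of silent euchromatic genes.

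In mm10, *Mbd5* (ENSMUSG00000036792.12) lies on the plus strand at chr2:48949508-49325405, with an exon union of 19632 bases. *Kmt2c* (ENSMUSG00000038056.15) lies on the minus strand at chr5:25271798-25498783, with 20291 exon bases. *Smarcb1* (ENSMUSG00000000902.13) lies on the minus strand at chr10:75896769-75921617, with 7930 exon bases. *Nr1i3* (ENSMUSG00000005677.14) is the smallest, on the plus strand at chr1:171213970-171220701, with 4414 exon bases. RPKM, reads scaled to exon length and to the depth of the nucleus, divides by such lengths, so the level of a gene of this size rests on fewer reads than the same level of *Kmt2c*.

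The promoters of the 4 genes are shown because they differ in CpG content, and because the *Nr1i3* start lies outside the exons that this gene shares with a neighbour, described below. Each window holds 250 bases before and 50 after the start, from RefSeq on GRCm38.p6, written along the gene's strand with each CG dinucleotide in capitals.
Mbd5 promoter (chr2:48949258-48949557, plus strand): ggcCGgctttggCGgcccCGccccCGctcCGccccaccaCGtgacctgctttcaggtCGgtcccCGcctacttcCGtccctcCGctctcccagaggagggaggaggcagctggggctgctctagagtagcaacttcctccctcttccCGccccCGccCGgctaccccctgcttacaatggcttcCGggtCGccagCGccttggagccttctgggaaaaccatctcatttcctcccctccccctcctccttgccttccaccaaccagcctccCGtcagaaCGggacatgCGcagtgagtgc
Kmt2c promoter (chr5:25498734-25499033, minus strand): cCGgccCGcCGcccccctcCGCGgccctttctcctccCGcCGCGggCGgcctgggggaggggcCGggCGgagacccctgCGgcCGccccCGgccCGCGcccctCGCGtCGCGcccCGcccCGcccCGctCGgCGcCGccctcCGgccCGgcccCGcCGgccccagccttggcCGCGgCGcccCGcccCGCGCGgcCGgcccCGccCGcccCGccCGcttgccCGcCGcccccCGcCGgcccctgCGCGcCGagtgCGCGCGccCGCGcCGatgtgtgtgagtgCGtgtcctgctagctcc
Smarcb1 promoter (chr10:75921565-75921864, minus strand): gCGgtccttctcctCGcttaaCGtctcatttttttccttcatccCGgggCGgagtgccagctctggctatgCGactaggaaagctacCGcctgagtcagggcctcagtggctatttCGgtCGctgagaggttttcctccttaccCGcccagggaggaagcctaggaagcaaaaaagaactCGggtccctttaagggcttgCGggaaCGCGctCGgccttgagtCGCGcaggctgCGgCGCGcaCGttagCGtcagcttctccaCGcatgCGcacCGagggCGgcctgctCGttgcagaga
Nr1i3 promoter (chr1:171213720-171214019, plus strand): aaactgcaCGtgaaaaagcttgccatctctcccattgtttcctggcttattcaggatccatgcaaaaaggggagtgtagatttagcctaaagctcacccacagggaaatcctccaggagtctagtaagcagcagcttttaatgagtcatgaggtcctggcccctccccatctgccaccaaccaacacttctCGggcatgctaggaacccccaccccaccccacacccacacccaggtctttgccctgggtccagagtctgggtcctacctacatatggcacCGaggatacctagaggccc

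The *Kmt2c* window held 56 CG dinucleotides, the *Smarcb1* window 27, the *Mbd5* window 19 and the *Nr1i3* window 3. Of 32851 promoter windows of the same length, 0.195% held at least as many as *Kmt2c*, 15.5% as many as *Smarcb1*, 28.1% as many as *Mbd5* and 76.7% as many as *Nr1i3*. The median window held 7. A second *Mbd5* start in the table, at chr2:49245650-49245949, had 4. Because CG reads the same on both strands, these counts do not depend on the strand.

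The targeted gene was checked first. In neurons of the 96-well plates *Ehmt1* averaged 18.7 RPKM in WT and 31.2 RPKM in the pool labelled Ehmt1delta/+. In the 384-well plates it was 19.5 RPKM in WT, 31.7 RPKM in the pool labelled Ehmt1delta/+, 20.7 RPKM in iTg and 33.9 RPKM in that labelled Ehmt1delta/+; iTg. The pools labelled Ehmt1delta/+ were thus higher, not lower, and the gene-level value does not read the deleted part on its own. Every direction below that involves this allele or the induced transgene rests on the labels. Median depth was between 323273 and 397880 reads in neurons of every pool. In glia it was between 441701 and 510639 reads in the 96-well plates and between 40256 and 54877 reads in the 384-well plates. Each label's own markers were far above those of the others: the summed level of 6 microglia markers was between 1809 and 3364 RPKM in nuclei labelled Microglia and at most 12.2 RPKM in the other labels, and that of 6 oligodendrocyte markers was between 2939 and 4483 RPKM in nuclei labelled Oligodendrocyte and at most 27.2 RPKM elsewhere. The 5 neuron markers summed to between 179.5 and 280.6 RPKM in neurons and still reached 86.5 RPKM in microglia and 70.6 RPKM in oligodendrocytes. RNA of neuron markers was thus read in nuclei with glial labels, and its source was not tested.

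*Mbd5* was highest in neurons. The 96-well plates gave a neuron mean of 13.3 RPKM for WT and 14.0 RPKM for Ehmt1delta/+, and the 384-well plates 10.2, 10.2, 9.93 and 11 RPKM for WT, Ehmt1delta/+, iTg and Ehmt1delta/+; iTg. In the same order, microglia gave 6.25, 7.25, 4.42, 6.98, 5.26 and 4.46 RPKM, and oligodendrocytes 5.68, 6.22, 4.47, 5.83, 3.87 and 4.84 RPKM. Every neuron pool lay above every glial pool, whereas the glial pools overlapped each other. Averaged over pools, *Mbd5* was 11.4 ± 1.75 RPKM in neurons, 5.77 ± 1.24 RPKM in microglia and 5.15 ± 0.903 RPKM in oligodendrocytes (mean ± SD, n = 6 pools), a ratio of 1.98 to microglia and 2.22 to oligodendrocytes. Neuron means lay above the other label without overlap for 29.3% of 26315 genes against microglia and for 31.2% against oligodendrocytes, so this order is shared by a large share of genes. Since the labels were set by clustering the same nuclei, these orders are a description and carry no test. The neuron level was 1.32 times as high in the 96-well as in the 384-well plates, a larger difference than any between genotypes within a plate format in neurons.

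*Kmt2c*, which had the highest RPKM of the 4 genes, showed the opposite order and was higher in glia. Neurons gave 22.2 and 21.6 RPKM in WT and Ehmt1delta/+ of the 96-well plates and 21.6, 21.5, 21.7 and 19.5 RPKM in the pools WT, Ehmt1delta/+, iTg and Ehmt1delta/+; iTg of the 384-well plates. Microglia gave 38.9, 33.6, 35.6, 28.3, 42.7 and 28.4 RPKM, and oligodendrocytes 32.5, 30.7, 39.2, 40.8, 39.4 and 30.8 RPKM. The neuron pools were nearly level with each other and lay below every glial pool, and the glial labels overlapped. The means were 21.4 ± 0.929 RPKM in neurons, 34.6 ± 5.72 RPKM in microglia and 35.6 ± 4.73 RPKM in oligodendrocytes (n = 6 pools). Microglia lay above neurons without overlap for 11.5% of genes, and oligodendrocytes above neurons for 9.57%. Within each pool the ratio of neurons to microglia was between 0.508 and 0.758, so the order held at the shallow depth of glia in the 384-well plates as well as at the high depth in the 96-well plates.

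*Smarcb1* was highest in oligodendrocytes. They gave 15.3 and 14.7 RPKM in WT and Ehmt1delta/+ of the 96-well plates, and 19.5, 18.2, 19.7 and 23.5 RPKM in the 4 pools of the 384-well plates in the order used above. Neurons gave 9.01, 8.70, 10.4, 9.38, 8.83 and 10.1 RPKM, and microglia 7.51, 5.84, 11.8, 5.81, 7.11 and 9.80 RPKM. Every oligodendrocyte pool was above every pool of the other labels, while neurons and microglia overlapped. The means were 18.5 ± 3.23 RPKM in oligodendrocytes, 9.40 ± 0.690 RPKM in neurons and 7.97 ± 2.37 RPKM in microglia (n = 6 pools). Oligodendrocytes lay above neurons without overlap for 9.57% of genes and above microglia for 9.80%. The microglia values of the 384-well plates rest on 38 to 81.5 *Smarcb1* reads per pool.

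*Nr1i3* had the lowest level. Neurons gave 3.13 and 3.04 RPKM in WT and Ehmt1delta/+ of the 96-well plates and 4.95, 4.52, 4.89 and 4.03 RPKM in the 4 pools of the 384-well plates. Microglia gave 2.88, 1.18, 4.24, 2.19, 2.23 and 0.974 RPKM, and oligodendrocytes 1.35, 1.3, 2.74, 2.60, 2.56 and 2.31 RPKM. Neuron pools were above all oligodendrocyte pools, as were those of 31.2% of all genes, but overlapped microglia. The means were 4.09 ± 0.846 RPKM in neurons, 2.28 ± 1.19 RPKM in microglia and 2.14 ± 0.651 RPKM in oligodendrocytes (n = 6 pools). These values cannot be taken as CAR messenger RNA alone, as the next paragraph shows.

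**Figure D1:**
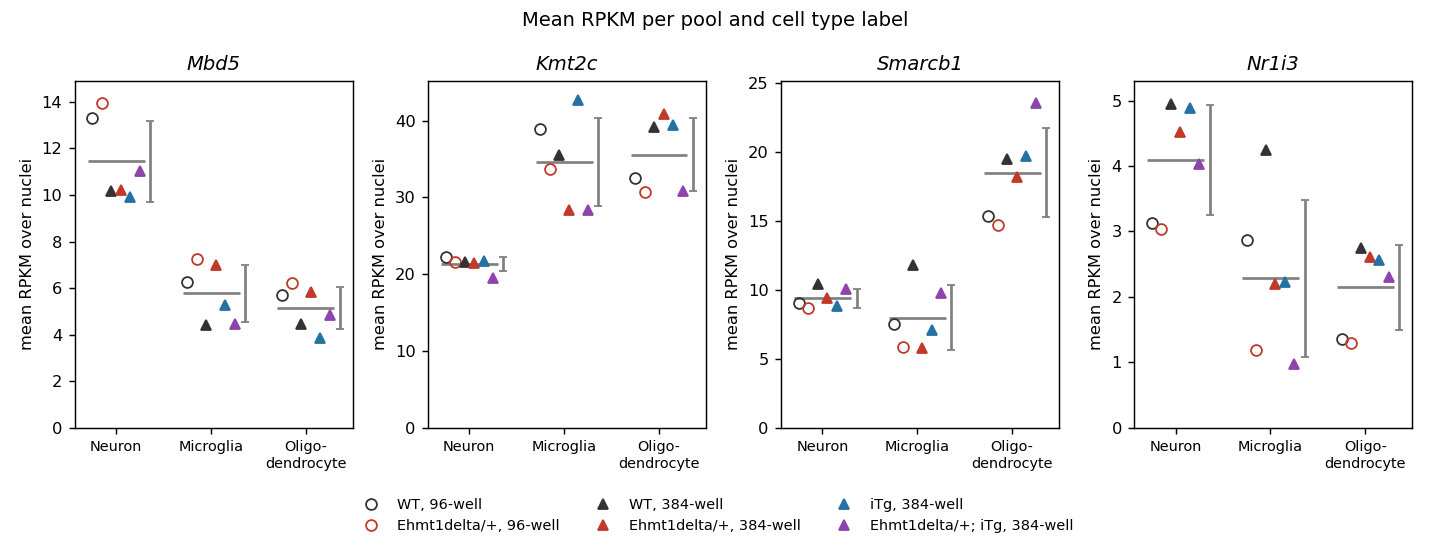
Mean RPKM of each gene over the nuclei of 1 pool (points, open circles for 96-well and filled triangles for 384-well plates) under each cell type label, with the mean (line) and SD (bar) over 6 pools. *Mbd5* points of neurons lie above all glial points, *Kmt2c* points of neurons lie below them, and *Smarcb1* points of oligodendrocytes lie above the rest.

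*Nr1i3* overlaps *Tomm40l* (ENSMUSG00000005674.9), which encodes a mitochondrial import protein and is read from the opposite strand at chr1:171216011-171222514. Of the 4414 exon bases of *Nr1i3*, 3304 (74.9%) are exon bases of *Tomm40l* too, between 171216379 and 171220652, and the library method does not mark strand. *Mbd5* shares 0.693% of its exon bases with *Orc4*, *Kmt2c* shares 1.35% with a gene model named Gm42585, and *Smarcb1* shares none. The study's methods name default settings of the read counter, which give whole counts, but the values hold fractions. Reads recovered from the RPKM steps came in fractions, and the difference between *Nr1i3* and *Tomm40l* was a whole number (within 0.02) in 2206 of 2206 nuclei, against 52.2% of nuclei for *Nr1i3* and *Mbd5*, 54.5% for *Nr1i3* and *Kmt2c* and 52.5% for *Nr1i3* and *Smarcb1*. In the 803 neurons where the *Nr1i3* value was not whole, that of *Tomm40l* carried the same fraction in all 803. Such matching fractions can arise when each gene is credited with an equal part of every read that falls in shared exons. Fractions also occurred without shared exons: 87.3% of *Smarcb1* values above 0 were whole, and 50.8% of those of *Mbd5*. The source of those fractions was not tested.

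Read by read, only a small part could be assigned to *Nr1i3* alone, and the true part is not known. Neurons had a mean of 7.15 *Nr1i3* reads and 10.3 *Tomm40l* reads. Equal parts cancel in the difference of the genes, so an excess of *Nr1i3* over *Tomm40l* is the least number of reads that must lie in *Nr1i3* only. Such an excess occurred in 6.13% of 1664 neurons, in 6 of 397 oligodendrocytes (1.51%) and in no microglia nucleus. The excess reads came to 1.60% of 11902 *Nr1i3* reads in neurons. This is a lower limit, because *Nr1i3* reads in a nucleus with more *Tomm40l* reads stay hidden. Of 1586 neurons with *Nr1i3* above 0, 1 had *Tomm40l* at 0, and any read in the shared exons puts both genes above 0. Across neurons Spearman's rho between the genes was between 0.84 and 0.87 in the 6 pools, a value that shared reads set in part.

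**Figure D2:**
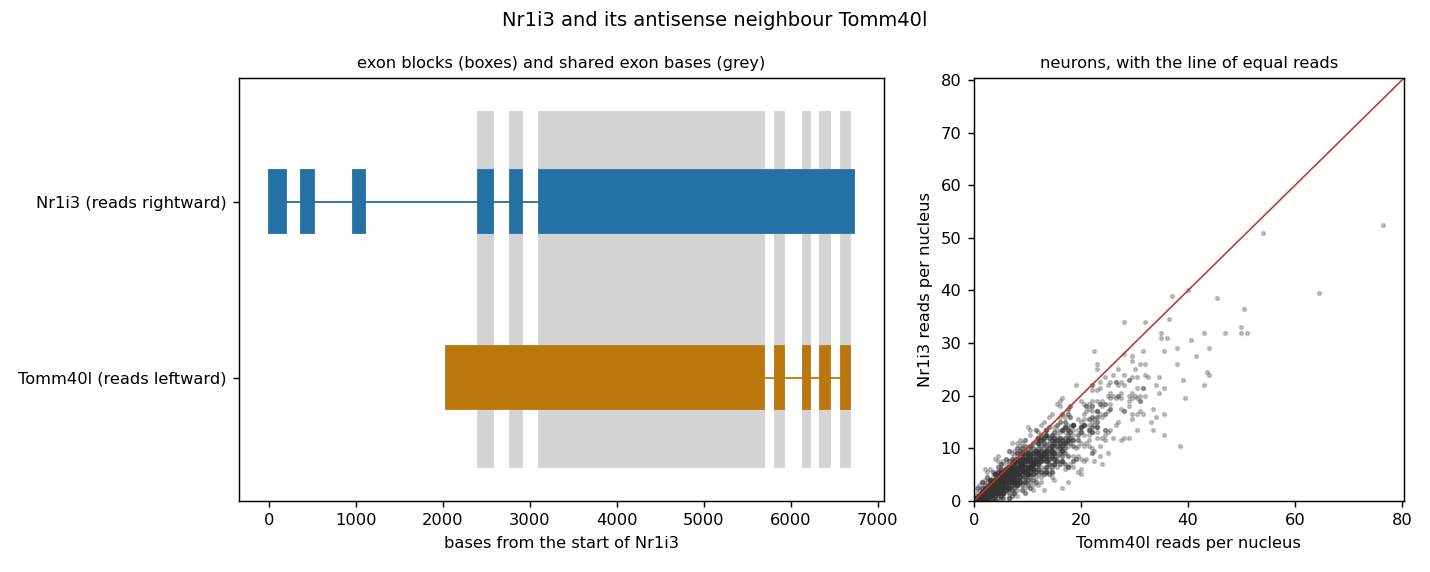
Left, exon blocks of *Nr1i3* and *Tomm40l* in bases from the *Nr1i3* start, with the 3304 shared exon bases in grey. Right, recovered reads of both genes in each of 1664 neurons with the line of equal reads, above which 6.13% of them lie.

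The share of nuclei with a value above 0 followed depth as well as level. In neurons it was 99.9% for *Mbd5* (95% Clopper-Pearson interval 99.7 to 100.0%), 100% for *Kmt2c* (99.8 to 100%), 98.5% for *Smarcb1* (97.8 to 99%) and 95.3% for *Nr1i3* (94.2 to 96.3%). In oligodendrocytes the shares were 76.6%, 97.7%, 82.1% and 31.5%, and in microglia 80.8%, 96.6%, 51.4% and 32.9%, in the same order of genes. The intervals cover counting error only, since reads without molecular tags are not independent molecules. With every nucleus thinned to 30000 reads, the neuron shares were 98.8% for *Mbd5*, 99.8% for *Kmt2c*, 81.4% for *Smarcb1* and 39.2% for *Nr1i3*. Of the 4 genes, *Nr1i3*, with a median of 5.5 reads in neurons, had the largest drop. Oligodendrocytes thinned in the same way gave 68.7%, 97.5%, 76.7% and 16.5%, and microglia 70.4%, 95.8%, 45% and 19.6%. *Gad1*, which makes GABA in inhibitory neurons, was above 0 in between 9.09% and 64.9% of excitatory nuclei (*Slc17a7* above *Gad1*). The highest value was in WT of the 96-well plates, and median depths were 333929 to 406930 reads. Where this *Gad1* signal comes from was not tested.

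Neurons were then split into 1324 excitatory (*Slc17a7* above *Gad1*) and inhibitory nuclei (the reverse), which made up the rest except for 7 neurons in neither class. Of the 4 members only *Nr1i3* differed between the classes in the limma fit with the pool as block, being lower in excitatory neurons (log2 ratio −0.31 ± 0.08 SE, adjusted p = 0.0182, 6 of 6 pools). This was 1 of 4 members where 40.7% of 25389 genes were called (21.4% lower and 19.3% higher in excitatory neurons). *Nr1i3* gave 3.06, 2.88, 4.80, 4.35, 4.50 and 3.85 RPKM in excitatory neurons and 3.34, 3.8, 5.40, 5.34, 6.61 and 4.87 RPKM in inhibitory neurons, with pools in the order WT and Ehmt1delta/+ of the 96-well plates, then WT, Ehmt1delta/+, iTg and Ehmt1delta/+; iTg of the 384-well plates. The ranges of the classes overlapped across pools, and within each pool the inhibitory mean was the higher one. *Tomm40l* was lower too (−0.29 ± 0.07, adjusted p = 0.0170 by the same limma fit), and the genes' parts in this difference cannot be told apart. The *Nr1i3* call was lost without the Ehmt1delta/+ pool of the 96-well plates (adjusted p = 0.0515) and with classes of nuclei in which only 1 of *Slc17a7* and *Gad1* was above 0 (adjusted p = 0.223), and held without WT of the 96-well plates (adjusted p = 0.0262). Its adjusted p ranged from 0.0132 to 0.223 over 12 alternatives.

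The other members did not pass the test. *Mbd5* was 11.2 ± 1.71 RPKM in excitatory and 12 ± 2.12 RPKM in inhibitory neurons (n = 6 pools), a log2 ratio of −0.09 with a 95% interval of −0.26 to 0.08 (adjusted p = 0.346, limma). *Kmt2c* was 21.1 ± 1.06 and 22.4 ± 1.77 RPKM, a log2 ratio of −0.09 with an interval of −0.27 to 0.10 (adjusted p = 0.409). *Smarcb1* was 9.23 ± 0.747 and 10.2 ± 1.02 RPKM, a log2 ratio of −0.14 with an interval of −0.32 to 0.05 (adjusted p = 0.207). For *Mbd5* and *Kmt2c* 1 of 6 pools, the iTg pool, was higher in excitatory neurons, and for *Smarcb1* 2 of 6 were, both WT.

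**Figure D3:**
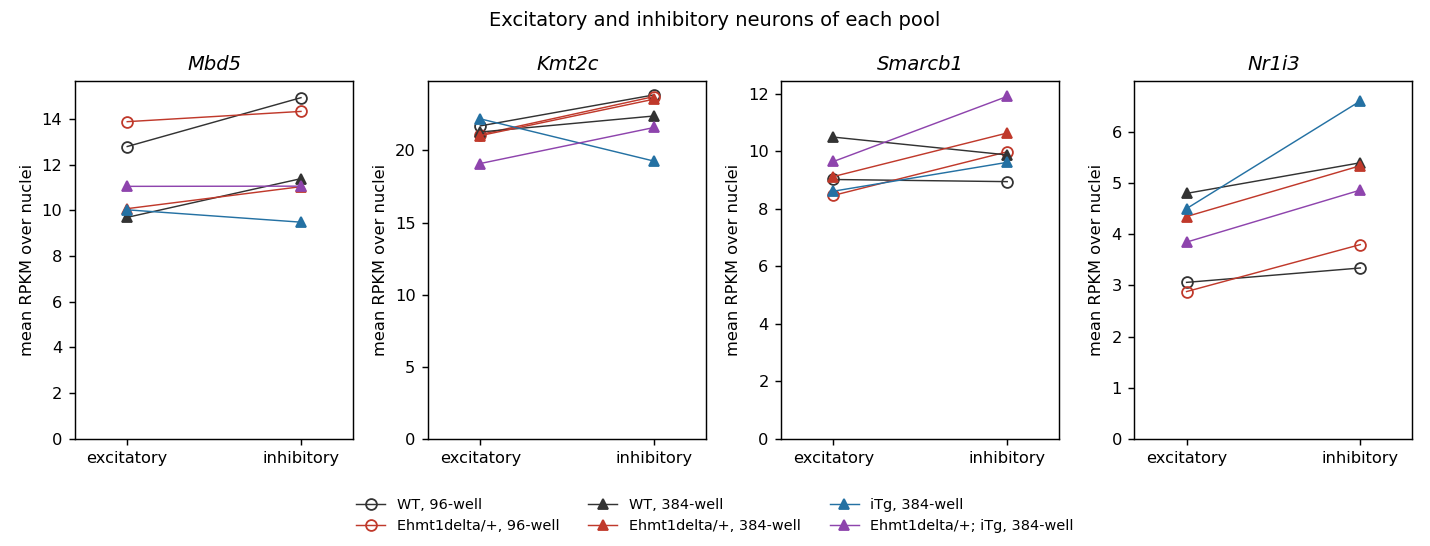
Mean RPKM of each gene in excitatory and inhibitory nuclei of the same pool, joined by a line, with circles for 96-well and triangles for 384-well plates. The *Nr1i3* lines rise toward inhibitory neurons in all 6 pools, while the other genes have lines of both directions.

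Among neuron subclasses set by marker genes, the levels of *Mbd5*, *Smarcb1* and *Nr1i3* overlapped in every pair of subclasses. *Mbd5* had its lowest mean in layer 4/5a (10.3 ± 1.33 RPKM) and its highest in *Lamp5* neurons (13.1 ± 3.67 RPKM). *Smarcb1* ran from 8.78 ± 1.09 RPKM in layer 6 to 11.1 ± 1.59 RPKM in *Pvalb* neurons, and *Nr1i3* from 3.85 ± 1.15 RPKM in layer 6 to 5.64 ± 2.99 RPKM in *Lamp5* neurons. The order of neighbours within these ranges is smaller than the SD over pools. *Kmt2c* was lowest in layer 4/5a, at 19 ± 0.866 RPKM with pools between 17.6 and 20.01 RPKM. It lay below layer 6 (pools between 20.4 and 23.3 RPKM) and below *Sst* neurons (pools between 21 and 25.2 RPKM) without overlap, as did 3.65% and 4.97% of 24353 genes. The smallest subclass, *Vip*, held as few as 3 nuclei of a pool, and 7.93% of excitatory and 8.41% of inhibitory nuclei fell into no subclass. Excitatory nuclei took the layer whose markers scored highest, and inhibitory nuclei the class with the largest RPKM among *Pvalb*, *Sst*, *Vip* and *Lamp5*. In neurons *Sst* gave between 19.4 and 111.3 RPKM over pools and *Pvalb* between 1.20 and 2.88 RPKM. The rule does not correct for this difference in scale. Subclasses were cut from the same nuclei by marker levels, so these are descriptions.

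**Figure D4:**
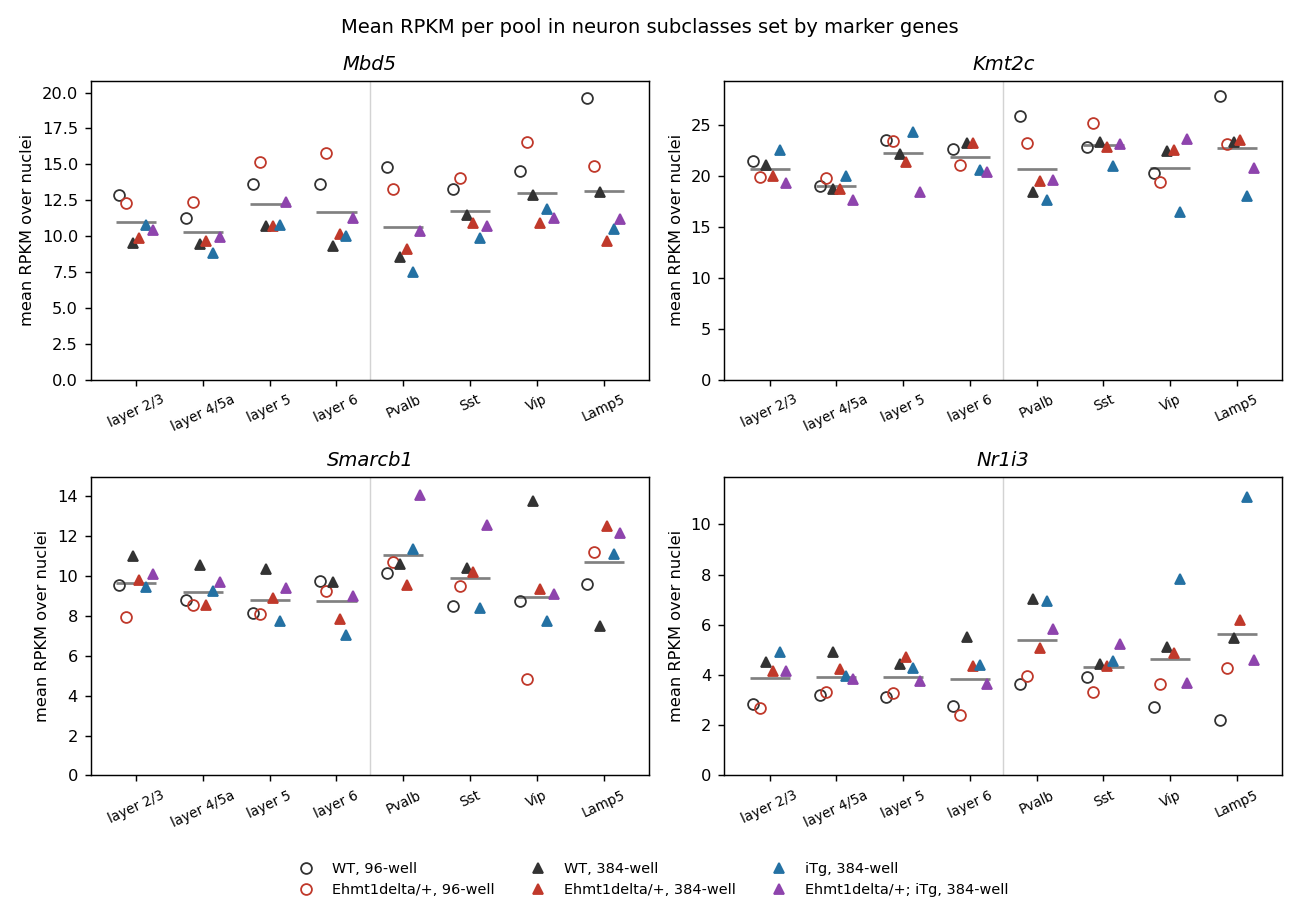
Mean RPKM per pool (points) and mean of 6 pools (line) in 4 excitatory layer groups and 4 inhibitory classes, with circles for 96-well and triangles for 384-well plates. *Kmt2c* in layer 4/5a lies between 17.6 and 20.01 RPKM, below all points of layer 6 and *Sst* neurons.

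The comparison of pools labelled Ehmt1delta/+ with WT asked whether the partial loss of GLP shifts the RNA of genes tied to a like syndrome. In neurons no member passed the test. The fitted log2 ratios were 0.04 for *Mbd5* (95% interval −0.27 to 0.35, adjusted p = 0.932), −0.03 for *Kmt2c* (−0.33 to 0.28, adjusted p = 0.958), −0.10 for *Smarcb1* (−0.41 to 0.22, adjusted p = 0.798) and −0.08 for *Nr1i3* (−0.40 to 0.23, adjusted p = 0.828), from limma over 6 pools with 1 residual degree of freedom. In each plate format taken alone the ratio had the same sign, from 0.01 to 0.07 for *Mbd5*, from −0.04 to −0.01 for *Kmt2c*, from −0.15 to −0.05 for *Smarcb1* and from −0.13 to −0.04 for *Nr1i3*. The median log2 ratio of all genes in the fit was −0.03. With pools scaled to remove such shifts the ratios were 0.10 for *Mbd5*, 0.04 for *Kmt2c*, −0.04 for *Smarcb1* and −0.02 for *Nr1i3*. The sign of *Kmt2c* thus changed with scaling. The background was 0% of 25496 genes called, from limma, with 2472 genes at an unadjusted p under 0.05 and 0 genes called by limma with trend. For scale, *Ehmt1* itself had a log2 ratio of 0.71 ± 0.10 in this fit and an adjusted p of 0.497. In the 96-well plates the nuclei of each pool carry 4 codes, of which WT and the pool labelled Ehmt1delta/+ share 3. *Mbd5* ran from 12.7 to 13.9 RPKM over the codes of WT and from 13.8 to 14.3 RPKM over those of Ehmt1delta/+, ranges that overlap. Within the shared codes *Mbd5* was higher in Ehmt1delta/+ in 3 of 3 (14.3 against 12.7, 13.8 against 13.1 and 13.8 against 13.6 RPKM) and *Kmt2c* was lower in 3 of 3 (21.7 against 22.8, 21.4 against 21.9 and 22.1 against 22.3 RPKM). *Smarcb1* and *Nr1i3* were each higher in 1 of 3 and lower in 2 of 3. These are values with no test, since no label says whether codes hold different mice. How many of all genes go the same way in every shared code was not counted, so these counts do not set the members apart. In the 384-well plates WT carries a code of its own and the other 3 pools share 1, so code and genotype cannot be told apart in comparisons with WT there.

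In glia the estimates were wider. In microglia the log2 ratio of the pools labelled Ehmt1delta/+ to WT was −1.07 for *Nr1i3* (95% interval −2.74 to 0.60), −0.68 for *Smarcb1* (−2.45 to 1.08), −0.27 for *Kmt2c* (−1.91 to 1.38) and 0.43 for *Mbd5* (−1.27 to 2.13), with adjusted p of 0.921, 0.921, 0.954 and 0.925 in limma. Both plate formats gave the same sign for each gene. *Nr1i3* was 1.18 against 2.88 RPKM in the 96-well plates, and 2.19 against 4.24 RPKM in the 384-well plates, where it rests on 8 reads in the pool labelled Ehmt1delta/+ and 13.5 reads in WT. *Tomm40l* moved with it, at −0.88 ± 0.51. In oligodendrocytes the ratios were 0.25 for *Mbd5*, −0.01 for *Kmt2c*, −0.08 for *Smarcb1* and −0.06 for *Nr1i3*, with adjusted p between 0.921 and 0.997. The background was 0% of 19950 genes in microglia (1.84% at an unadjusted p under 0.05) and 0% of 18200 genes in oligodendrocytes (3.54% at an unadjusted p under 0.05), both from limma.

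The transgene comparisons asked whether GLP made after Cre induction moves these genes, in Ehmt1+/+ and in Ehmt1delta/+ neurons. The gene-level *Ehmt1* RNA of neurons hardly showed the induction. It was 20.7 RPKM in iTg against 19.5 RPKM in WT of the 384-well plates. In Ehmt1delta/+; iTg it was 33.9 RPKM, against 31.7 RPKM in Ehmt1delta/+ of those plates. The study reported more total GLP protein than in WT in neurons after induction, which these RNA values do not measure. In iTg against WT the log2 ratios were −0.02 for *Mbd5*, −0.21 for *Smarcb1* and under 0.01 in size for *Kmt2c* and *Nr1i3*, with standard errors of 0.14 and adjusted p between 0.664 and 0.998. In Ehmt1delta/+; iTg against Ehmt1delta/+ they were 0.10 for *Mbd5*, −0.13 for *Kmt2c*, 0.07 for *Smarcb1* and −0.18 for *Nr1i3*, with the same standard errors and adjusted p between 0.443 and 0.755. The difference of these effects was 0.11 for *Mbd5*, −0.13 for *Kmt2c*, 0.28 for *Smarcb1* and −0.19 for *Nr1i3*, with adjusted p between 0.388 and 0.706, and did not pass the test for any member. The background was 0% of 25496 genes called in each of these comparisons (2587, 6831 and 6692 genes at an unadjusted p under 0.05), although limma with trend called 1.26% of genes in Ehmt1delta/+; iTg against Ehmt1delta/+ and 0 in the others. The median log2 ratio of all genes was −0.10 in iTg against WT, 0.17 in Ehmt1delta/+; iTg against Ehmt1delta/+ and 0.28 in the difference. Some of these directions depended on scaling, that of *Mbd5* in each comparison, while *Nr1i3* kept its sign in each. With pools scaled to remove the shift, *Mbd5*, *Kmt2c*, *Smarcb1* and *Nr1i3* gave 0.11, 0.13, −0.08 and 0.14 in iTg against WT, −0.10, −0.33, −0.12 and −0.38 in Ehmt1delta/+; iTg against Ehmt1delta/+, and −0.21, −0.46, −0.05 and −0.51 in the difference, with adjusted p between 0.221 and 0.894 in limma. Induced GLP is held by 1 pool per genotype, and the control side is fitted from the 384-well and 96-well pools together. The 96-well pools thus enter the ratio as well as the spread. For *Smarcb1* in iTg against WT, the 384-well pools alone gave −0.23 where the fit gave −0.21. The WT and Ehmt1delta/+ pools serve as controls in more than 1 of these comparisons.

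**Figure D5:**
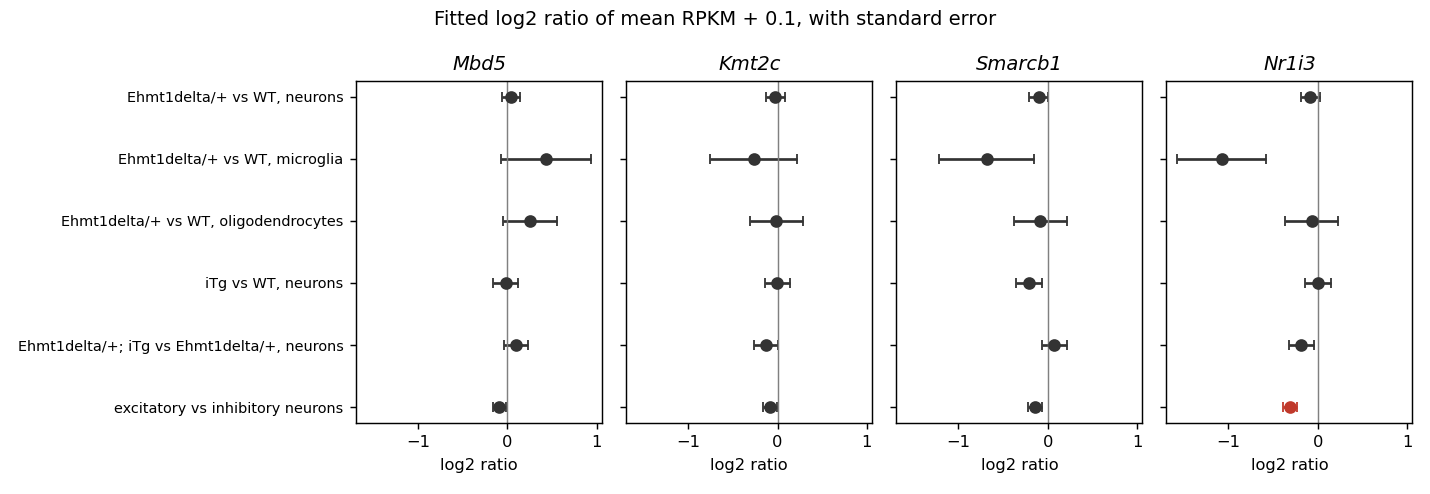
Fitted log2 ratio of mean RPKM + 0.1 (point) and its standard error (bar) for each gene in 6 comparisons, in red where the adjusted p is under 0.05. Only *Nr1i3* in excitatory against inhibitory neurons (−0.31 ± 0.08) is in red.

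The partner genes of each member were read next, from lists of related genes, of complexes and, for CAR, of coregulators and target genes. Exons shared with other genes were looked up for the members only, so the level of a partner gene may hold reads of a neighbour. In the 6 genotype and transgene comparisons 0 genes of any list were called. Of all genes tested 0% were called there too, so this says nothing particular about the lists. Between neuron classes some genes of the lists were called, each share being read against the 40.7% of all genes called and a median log2 ratio of −0.02. Of 9 genes, those of the MBD family with the zinc finger genes *Zbtb33*, *Zbtb4* and *Zbtb38*, 1 was higher and 1 lower in excitatory neurons (median −0.01). *Mbd4*, a DNA glycosylase that repairs mismatches at CpG sites, was 4.34 RPKM in excitatory and 1.72 RPKM in inhibitory neurons (log2 ratio 1.34 ± 0.11, adjusted p = 0.000117, 6 of 6 pools). *Mbd6*, the close relative of *Mbd5* that also joins PR-DUB, was 22.5 and 26.2 RPKM (−0.22 ± 0.06, adjusted p = 0.0289). Of 9 PR-DUB genes, 1 was higher and 1 lower (median 0.02). *Foxk1*, a forkhead factor that recruits the complex, was 12.04 and 6.42 RPKM (0.92 ± 0.09, adjusted p = 0.000292), and *Ogt*, which adds O-GlcNAc to proteins of the complex, was 135.7 and 192.98 RPKM (−0.50 ± 0.07, adjusted p = 0.00124). *Bap1*, the deubiquitinase itself, did not pass (14.3 and 13.1 RPKM, adjusted p = 0.226; it is named outside the rule).

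Of 14 other COMPASS genes, 2 were higher and 1 lower in excitatory neurons (median −0.09). *Pagr1a*, a subunit particular to complexes with *Kmt2c* or *Kmt2d*, was 55.9 and 32.8 RPKM (log2 ratio 0.78 ± 0.08, adjusted p = 0.000318), and *Men1*, which tethers *Kmt2a* and *Kmt2b*, was 16.7 and 13.4 RPKM (0.29 ± 0.07, adjusted p = 0.0162). *Dpy30*, a core subunit, was 1.49 and 2.11 RPKM (−0.46 ± 0.09, adjusted p = 0.00530). These went in both directions, and *Kmt2c* itself gave no call. The list spans complexes of several methyltransferases, not only those with *Kmt2c*.

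Of 29 other BAF and PBAF genes, 5 were higher and 4 lower in excitatory neurons (median 0.02). Higher were *Brd9*, the bromodomain subunit of the non-canonical complex (47.3 and 28.2 RPKM, 0.75 ± 0.07, adjusted p = 0.000252), *Bcl11a* (22.3 and 14.8 RPKM, 0.61 ± 0.08, adjusted p = 0.000897), *Dpf1* of the neuronal complex (13.7 and 9.57 RPKM, 0.53 ± 0.08, adjusted p = 0.00215) and *Ss18* (4.13 and 3.13 RPKM, 0.39 ± 0.07, adjusted p = 0.00373). Lower were *Bcl11b*, a factor of deep-layer and striatal neurons (6.78 and 9.92 RPKM, −0.52 ± 0.11, adjusted p = 0.00731), *Bicra* (6.33 and 8.24 RPKM, −0.37 ± 0.08, adjusted p = 0.00721), *Phf10* of PBAF (7.02 and 8.95 RPKM, −0.33 ± 0.08, adjusted p = 0.0166) and the DNA-binding subunit *Arid1a* (16.1 and 18.6 RPKM, −0.22 ± 0.07, adjusted p = 0.0358). The remaining called gene, named outside the rule, was *Actl6b*, the actin-related subunit of neuronal BAF (32.4 and 25.7 RPKM, 0.32 ± 0.07, adjusted p = 0.00772). By label, 10 of the 29 lay above oligodendrocytes in every neuron pool, where 31.2% of all genes did. *Smarcb1* itself went the other way.

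Of 13 CAR partners, coregulators and related receptors, 11 could be tested, and 2 were higher and 4 lower in excitatory neurons (median −0.04). *Rxra*, the usual partner of CAR, was 2.29 RPKM in excitatory and 5.44 RPKM in inhibitory neurons (log2 ratio −1.19 ± 0.10, adjusted p = 0.000114), and *Rxrg* was 0.585 and 3.98 RPKM (−2.61 ± 0.32, adjusted p = 0.000772). The coactivators *Ppargc1a* (−1.13 ± 0.11, adjusted p = 0.000330) and *Ncoa1* (−0.68 ± 0.07, adjusted p = 0.000379) were lower too, each in 6 of 6 pools. The clock repressor *Nr1d1* (1.01 ± 0.09, adjusted p = 0.000196) was higher, in 6 of 6 pools. *Nr1i2* (PXR), the receptor closest to CAR, averaged 0.187 RPKM in neurons and was above 0 in 7.21% of them. Of 9 genes that CAR induces in liver, 4 (*Cyp2b13*, *Cyp2b9*, *Cyp2c29* and *Cyp3a11*) were listed at 0 in every nucleus averaged here, and *Cyp2b10*, the classical CAR target of mouse liver, was above 0 in 0.120% of neurons. The 2 that could be tested, *Por* (9.78 RPKM in neurons) and *Abcc2* (0.156 RPKM), were not called.

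The genes whose pattern over the 18 means of pools and cell types was most like each member, among 13337 candidates, are given as a description, since the points share libraries and depth. For *Mbd5* they were *Uggt2* (Pearson's r = 0.97), *Fam110b* (0.96) and *Atp1b1* (0.96), each higher in neurons. For *Kmt2c* they were *Ins2* (0.93), *Wbp1l* (0.92) and *Slc25a38* (0.92), each higher in glia. The *Ins2* entry of the annotation spans 64726 bases, far beyond the insulin gene, so its value is not insulin RNA alone. For *Smarcb1* they were *Cep97* (0.95), *Sgk2* (0.94) and *Prpsap1* (0.94), each highest in oligodendrocytes. For *Nr1i3* the nearest was *Tomm40l* (0.99), with *Tubg2* and *Ubxn11* (both 0.89) after it. Between the members, *Mbd5* and *Kmt2c* ran against each other (r = −0.84 over 18 points), and the other pairs lay between −0.48 and 0.46. Across the neurons of a pool, the members were nearly unrelated, with Spearman's rho between −0.14 and 0.14 for each pair and between −0.12 and 0.14 with the reads of the nucleus.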

How the data were processed

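Per the study's methods and the labels, the authors trimmed reads with Fastq-mcf, mapped them to mm10 with HISAT2 2.0.4, counted them per gene with featureCounts (Subread 1.5.0, stated as default settings, although the values hold fractions of reads) on a Gencode annotation, kept nuclei of good quality and set cell types from UMAP clusters and markers. The authors deposited RPKM, already scaled to gene length and depth, for 52636 genes in 1 table per plate format, with 2207 columns matched to samples by name. Symbols were matched for 52403 genes, and positions and exon lengths for 49121 genes with the same versioned identifier in GENCODE M21 (mm10).

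The members and lists were chosen with earlier results of these data known. For each pool the mean RPKM over its nuclei was taken, and limma 3.58.1 (R 4.3.3) was fitted to log2(mean + 0.1). P-values were adjusted by Benjamini-Hochberg over all tested genes, with a threshold of 0.05. The ratio is on that scale and understates changes of low genes. A gene entered a test if at least 10% of nuclei in a genotype or class had a value above 0. Genotype fits held plate format, allele, induced GLP and their product (1 residual degree of freedom), and the class fit held the pool as block (5 residual degrees of freedom). The fits were checked on simulated data, where the genotype fits in glia called no changed gene at any size tried and the neuron genotype fit found only large changes, so a lack of calls there is not evidence of no change. The total reads of a nucleus were worked out from the steps of its values (1 nucleus gave none and was left out of read counts), and thinning to 30000 reads left out shallower nuclei. Named partner genes were those called between classes, up to 4 in each direction per list, or else the 2 with the highest neuron mean, and the 3 genes most alike had over 1 RPKM on average. Alternatives were another pseudocount, no filter, scaled pools, limma with trend, deep nuclei, an additive fit, other class rules and leaving out each pool. The values of 1 partner gene are not reported here.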

Additional observations from a re-analysis of the deposited data

Results flagged for a closer look

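*Kmt2c* in neurons of the Ehmt1delta/+; iTg pool (19.5 RPKM) lay apart from the other 5 pools, which lay between 21.5 and 22.2 RPKM: its gap to the nearest pool was 0.718 of the whole range, above the critical 0.625 for 6 samples. This was 1 of 20 sets of 6 pool means looked at, and chance flags about 1 in 20. The fitted log2 ratio of that pool to Ehmt1delta/+ was −0.13 ± 0.14 (adjusted p = 0.581, limma). The cause was not tested.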

How the results depend on the processing

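The class comparison was paired by pool. Between genotypes no paired analysis was possible because the labels give the pools no mouse or replicate number. The values within codes that WT and Ehmt1delta/+ share on 96-well plates stand in the report, untested. Of the members' fitted ratios under alternatives, 97.1% kept their sign or stayed within 1 SE and kept their side of the threshold. Most of them come from genotype and transgene fits, where a call could hardly change, so this share is no measure of stability. Those that leave out a pool of a genotype comparison have no residual degrees of freedom and no test. Leaving out either WT or Ehmt1delta/+ of a plate format gave the same value, so these repeat each other. The 6 ratios outside the 97.1% were the *Nr1i3* class call, lost under 2 alternatives, and *Mbd5* and *Smarcb1* with scaled pools. The latter were at −0.10 and −0.12 in Ehmt1delta/+; iTg against Ehmt1delta/+ and at −0.21 and −0.05 in the difference of effects. The cause was not tested. The genotype fits can hardly pass the threshold, so that 0% called under their alternatives says nothing of stability; the exception was 1.26% for Ehmt1delta/+; iTg against Ehmt1delta/+ with trend. The class comparison called 5940 genes (23.9%) with classes of nuclei where only 1 of *Slc17a7* and *Gad1* was above 0 and between 34.2% and 36.9% of genes without 1 pool, against 10340 (40.7%). In 96-well plates alone the means moved to 13.6 (*Mbd5*) and 3.08 (*Nr1i3*) RPKM in neurons, and 15.002 (*Smarcb1*) and 1.32 (*Nr1i3*) RPKM in oligodendrocytes. At 2 or more reads the shares moved to 72.3% and 70.03% (*Mbd5*, microglia and oligodendrocytes), 97.5% and 77.6% (*Smarcb1*, neurons and oligodendrocytes) and 83.4%, 24.05% and 19.9% (*Nr1i3*, neurons, microglia and oligodendrocytes). Thinned, they moved to 98.8%, 70.4% and 68.7% (*Mbd5*), 81.4% and 76.7% (*Smarcb1*, neurons and oligodendrocytes) and 39.2%, 19.6% and 16.5% (*Nr1i3*). Depth limits glia of the 384-well plates most.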

Other observations

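Among the partner genes, several had their highest level outside neurons, and these were picked after their values were seen. *Setd1a*, a methyltransferase of the same family as *Kmt2c*, averaged 356.6 RPKM in microglia and 294.99 RPKM in oligodendrocytes against 62.3 RPKM in neurons. *Abcc3*, an export pump that CAR induces in liver, averaged 103.1 RPKM in microglia, 0.157 RPKM in oligodendrocytes and 0.0988 RPKM in neurons. *Arid1a* averaged 72.6 RPKM in microglia, 26.4 RPKM in oligodendrocytes and 16.7 RPKM in neurons. In the other direction, *Actl6b* and *Dpf1*, subunits of the neuronal BAF complex, averaged 30.98 and 12.8 RPKM in neurons and under 1 RPKM in both glial labels. *Asxl3*, a scaffold of PR-DUB, was 9.66 RPKM in oligodendrocytes, 3.86 RPKM in neurons and 0.0172 RPKM in microglia. These are means of 6 pools with no test, and exons that these genes share with others were not looked up.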
